A study of Mus musculus with 2 samples.

Results

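The genes described here write or erase methylation on lysine 4 of histone H3 (H3K4) and were profiled for 5-hydroxymethylcytosine (5hmC) in mouse prospermatogonia. They are 10 genes: the methyltransferases Kmt2a, Kmt2b, Kmt2c, Kmt2d, Setd1a and Setd1b, the SETD1 subunit Cxxc1, and the demethylases Kdm1a, Kdm1b and Kdm5b. A peak was taken as theirs when it overlapped the mm10 span of a gene or lay within 10 kb of it, which gave 73 of the 108395 peaks called in the captured library. No peak belonged to more than 1 of the 10 genes. All cells were wild-type (WT) male germ cells from embryos at E17.5, 30000 of them pooled from multiple embryos, and 50 ng of sheared DNA entered a 5hmC-Seal capture, in which a labelled glucose on 5hmC carries the biotin used for pull-down. The series holds 1 captured library and 1 library of the input DNA, both of batch 1, and only the captured library has a file used here.

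Methylation of H3K4 marks promoters and enhancers that are active or poised. KMT2A and KMT2B act at chosen promoters, KMT2C and KMT2D place single methyl groups at enhancers, and SETD1A and SETD1B, guided by the CpG-binding subunit CXXC1, do most of the trimethylation. KDM1A and KDM1B remove mono- and dimethylation, and KDM5B removes trimethylation. The mark matters for DNA methylation in germ cells because DNMT3 proteins bind histone H3 whose lysine 4 is unmethylated, so methylated H3K4 keeps new DNA methylation away. 5hmC, which TET enzymes make from 5-methylcytosine, was the only mark measured here, so the values below describe DNA at these genes and neither their expression nor H3K4 itself.

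5hmC peaks covered much of the bodies of 5 of the 6 methyltransferase genes and of Cxxc1, and little of Kmt2c, Kdm1a and Kdm5b. A start was listed for 7 of the 10 genes, all but Kmt2b, Setd1b and Cxxc1. Kdm5b was the only gene of the 7 with a peak within 1 kb of the start. Most protein-coding genes also lacked such a peak, which was found at 8.16% of the 17491 with a listed start. The 300 bases around a start, 250 before and 50 after, are shown for 3 genes that span the range of CpG content and of distance to the nearest peak, with each CG in capitals and the sequence read in the direction of transcription. They come from RefSeq, assembly GRCm38.p6, which is the same build as mm10. Kdm5b, chr1:134559928-134560227 on the plus strand, held the fewest CG of the 7. Kmt2d, chr15:98871156-98871455 on the minus strand, belonged to a heavily covered gene. Kmt2c, chr5:25498734-25499033 on the minus strand, held the most CG and lay farthest from a peak.
Kdm5b: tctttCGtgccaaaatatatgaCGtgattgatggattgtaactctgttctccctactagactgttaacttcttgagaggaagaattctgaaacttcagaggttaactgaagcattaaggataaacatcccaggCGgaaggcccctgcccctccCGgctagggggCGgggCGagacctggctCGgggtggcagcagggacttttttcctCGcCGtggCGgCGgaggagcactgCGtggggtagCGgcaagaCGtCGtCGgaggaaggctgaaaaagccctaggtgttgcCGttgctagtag
Kmt2d: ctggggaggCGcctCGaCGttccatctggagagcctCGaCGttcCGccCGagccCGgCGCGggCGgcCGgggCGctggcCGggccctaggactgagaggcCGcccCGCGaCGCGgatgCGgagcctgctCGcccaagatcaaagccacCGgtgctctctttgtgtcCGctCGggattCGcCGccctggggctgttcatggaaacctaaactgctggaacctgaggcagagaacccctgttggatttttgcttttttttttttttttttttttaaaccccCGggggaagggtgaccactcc
Kmt2c: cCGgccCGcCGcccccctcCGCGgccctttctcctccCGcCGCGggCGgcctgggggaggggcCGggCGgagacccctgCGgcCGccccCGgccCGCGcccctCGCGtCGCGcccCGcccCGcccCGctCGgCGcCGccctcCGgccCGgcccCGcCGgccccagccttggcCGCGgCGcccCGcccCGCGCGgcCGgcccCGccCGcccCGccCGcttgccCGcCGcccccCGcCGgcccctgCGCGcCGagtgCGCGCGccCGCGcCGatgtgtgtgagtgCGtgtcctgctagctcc

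The letters CG, which read alike on both strands, occurred 17 times in the Kdm5b sequence, 27 times in Kmt2d and 56 times in Kmt2c. The other listed starts held 26 for Kdm1b, 29 for Kdm1a, 35 for Setd1a and 36 for Kmt2a. At least 1 CG was found in 94.8% of the 300-base start sequences of protein-coding genes, whose median was 13, so all 7 genes were above the median and Kmt2c had more than 99.8% of them. The peak at Kdm5b reached into the last 5 bases of its sequence, and no other of the 7 sequences touched a peak. Among protein-coding genes with 20 or more CG in this window, 3.23% had a peak within 1 kb of the start, against 10.9% of those with fewer, and 6 of the 7 genes were in the CG-rich class, which holds 36.1% of protein-coding genes with a listed start. Sequences for Kmt2b, Setd1b and Cxxc1 are not shown.

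The distance from the start to the nearest peak was 45 bp at Kdm5b, 2541 bp at Setd1a, 2707 bp at Kmt2d, 3081 bp at Kmt2a, 4044 bp at Kdm1a, 5197 bp at Kdm1b and 7892 bp at Kmt2c. The median of the 7 was 3081 bp, against 6043 bp over all protein-coding genes with a listed start and 4390 bp over those in the CG-rich class. Except at Kmt2c, the nearest peak was thus closer than the median over all genes, although only at Kdm5b was it within 2 kb. The listed start of Kmt2d lies 2872 bp inside the annotated span, so the span of this gene also holds sequence before that start.

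From 5 to 20 kb after the start, 24.0% of bases were under peaks on average over the 7 genes, and 6 of the 7 had a peak there. The same window averaged 6.44% over 7948 protein-coding genes of 20 kb or more, of which 58.1% had a peak there. In the opening 5 kb of the genes the averages were close, at 5.03% and 5.42%, and in the 5 kb before the start they were 2.81% and 3.59%. Over the whole 10 kb before the start they were 6.89% and 4.29%, and 5 of the 7 genes had a peak there, against 41.3%. The bins from 10 to 7 kb before the start averaged 10.9%, 22.2% and 12.2% in the 7 genes, but only 3, 2 and 1 of them had a peak there. Those were flank peaks of Setd1a, Kdm5b and Kmt2d, which touched the annotated genes Fbxl19, Mgat4e and Rhebl1. In the profile around the start, the bins from 2 kb before to 2 kb after it held a peak only in Kdm5b. Every bin from 4 to 20 kb was above the mean of the other genes, at 9.27% or more. Each of these means came from only 1 to 4 of the 7 genes, since the others had no peak in that bin.

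**Figure D1:**
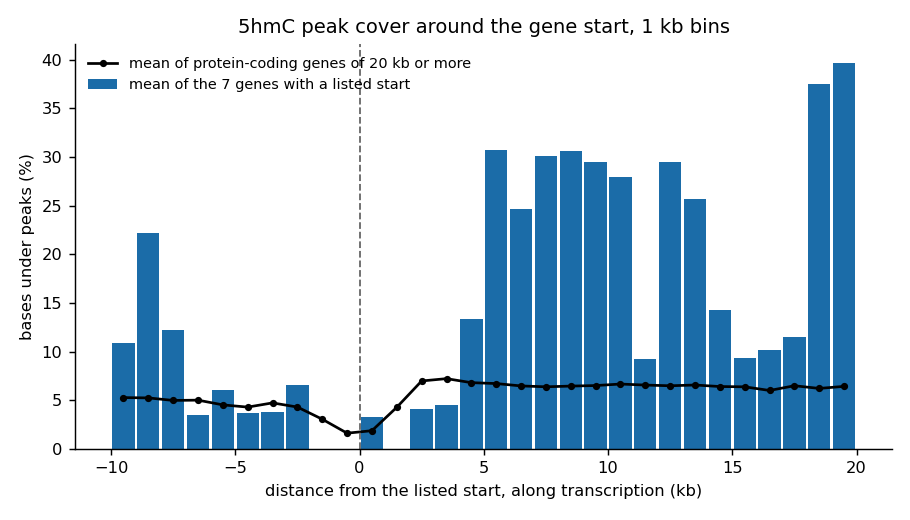
Share of bases under 5hmC peaks in 1 kb bins (vertical axis, percent) by distance from the listed start along transcription (horizontal axis, kb). Bars are the mean of the 7 genes with a listed start and the line is the mean of 7948 protein-coding genes of 20 kb or more; bars stay at 0 from -2 to 0 kb and reach 30.7 in the bin from 5 to 6 kb.

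Each of the 10 genes had at least 1 peak in its span or within 10 kb, against 78.7% of 21775 protein-coding genes, and each had a peak touching the span itself, against 61.6%. These shares were higher among the 15782 protein-coding genes within the length range of the 10. Of those, 13483 had a peak in the span or within 10 kb, and 11601, or 73.5%, had one touching the span. Of the 73 peaks, 59 touched a span and 14 lay in a flank. Together 94.8 kb of 589 kb of gene span were under peaks, and the 6 methyltransferase genes held 80.8% of that length. The share of a span under peaks ran from 2.76% to 74.5%, with a median of 28.8%. Over all protein-coding genes the median was 2.25%, and over the 15782 whose length lies within the range of the 10 genes it was 4.13%. For each gene the share is set beside protein-coding genes within 2-fold of its length, called genes of like length below. With 1 captured library the error of a share is unknown, so neither the order of the genes nor any difference between them could be tested.

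**Figure D2:**
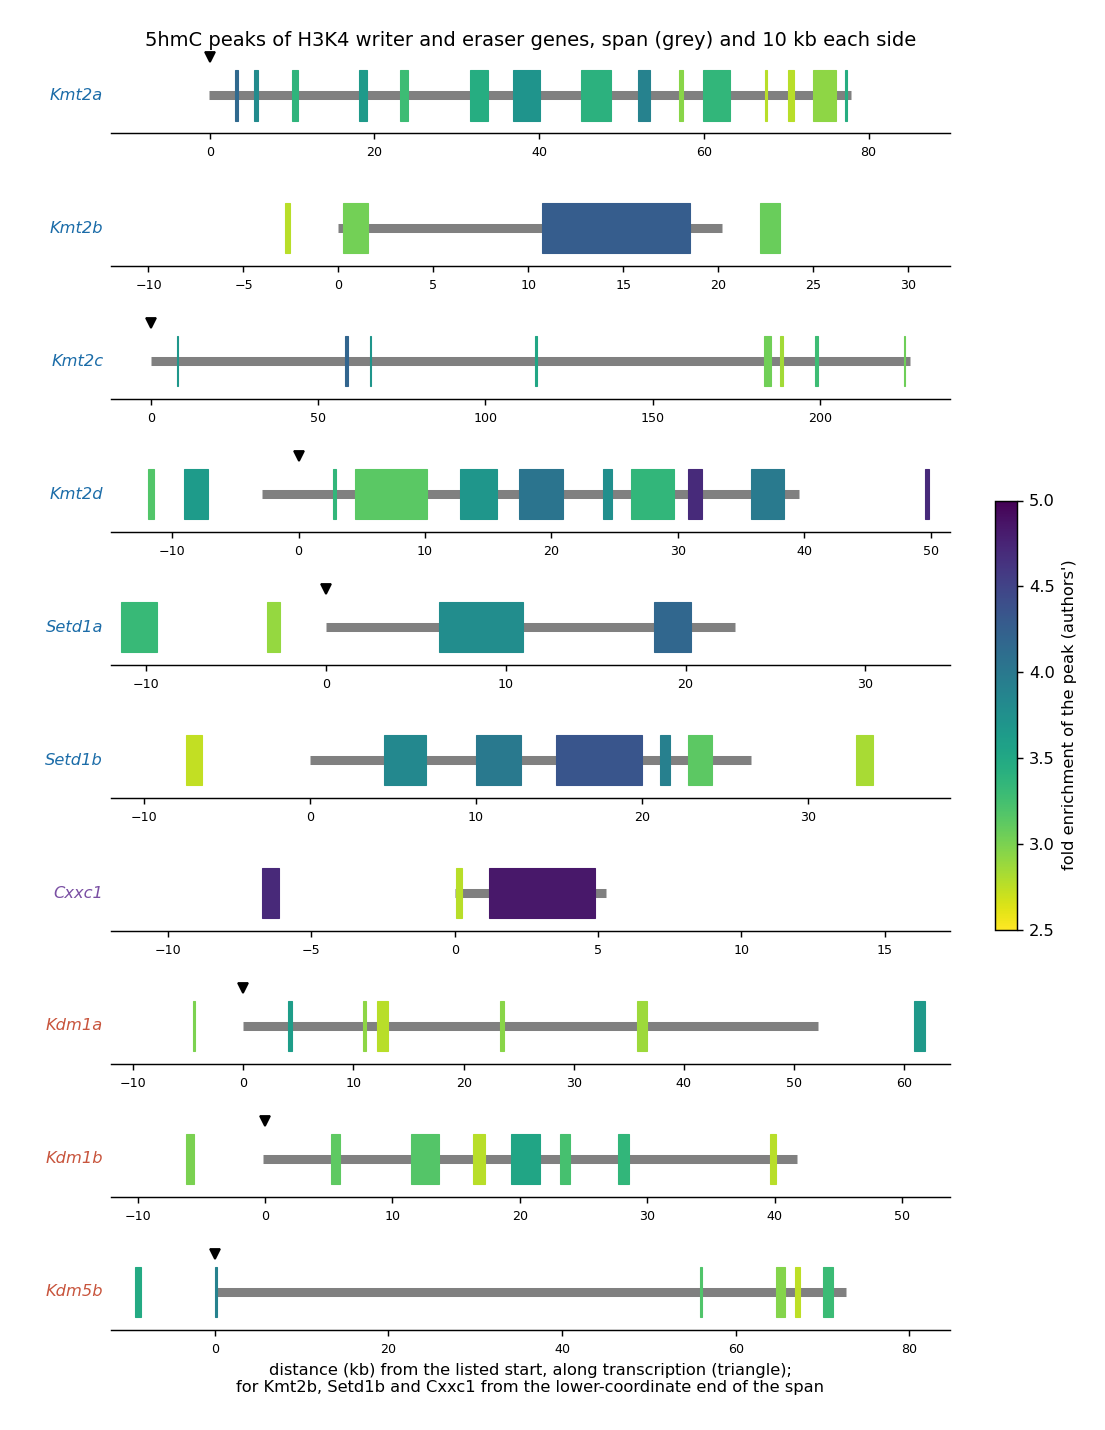
Peaks of the 10 genes drawn to scale along each gene (horizontal axis, kb from the listed start along transcription, marked by a triangle, or from the lower-coordinate end of the span for Kmt2b, Setd1b and Cxxc1; scales differ between rows). Grey bars are gene spans, boxes are peaks coloured by the authors' fold enrichment; peaks fill much of Kmt2a, Kmt2b, Kmt2d, Setd1a, Setd1b and Cxxc1, and are sparse in Kmt2c, Kdm1a and Kdm5b.

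Kmt2a, on chr9:44803355-44881352, encodes the founding mammalian MLL methyltransferase, which maintains Hox gene expression. Its 15 peaks all touched the span and covered 21.8 kb, or 28.0% of it, more than 98.3% of 4746 genes of like length, whose median was 3.94%. No peak lay in either flank. Split into 3 equal segments from start to end, the gene was covered at 13.1%, 35.0% and 35.7%. The widest peak, 3.69 kb at chr9:44832529-44836218, had a fold enrichment of 3.40. The strongest, at chr9:44877896-44878208, had a fold of 4.16, was 313 bp wide and lay within the non-coding gene Gm39326, which overlaps the start of Kmt2a. Gm39326 also overlapped every further peak from there to chr9:44857231-44858206, so none of these can be given to Kmt2a alone. The peaks of Kmt2a were thus many, with folds from 2.77 to 4.16, and spread over most of the gene.

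Kmt2b, on chr7:30568855-30589056, encodes the closest relative of KMT2A, which methylates CpG-rich promoters in the germline. Only 2 peaks touched its span, yet they covered 45.2% of it, more than 99.1% of 7925 genes of like length (median 4.59%). Nearly all of this was a single peak of 7.79 kb at chr7:30579572-30587363 with a fold of 4.27, the widest of all 73. The other, 1.34 kb at chr7:30569092-30570429, had a fold of 3.03 and lay at 1 end of the gene. The flank peaks lay in the neighbouring genes Igflr1 (fold 2.77) and Zbtb32 (fold 3.07).

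Kmt2c and Kmt2d encode the paired enhancer methyltransferases, and of the pairs Kmt2a and Kmt2b, Kmt2c and Kmt2d, Setd1a and Setd1b, and Kdm1a and Kdm1b, theirs differed most in the share under peaks. Kmt2d, on chr15:98831669-98874077, had 8 peaks in its span that covered 20.2 kb, or 47.7%, more than 99.8% of 6732 genes of like length (median 4.22%). Its strongest peak was chr15:98839297-98840385 with a fold of 4.71, and its widest, chr15:98861039-98866755, was 5.72 kb with a fold of 3.14. Kmt2c, on chr5:25271795-25498855, is the longest of the 10 genes at 227 kb and also had 8 peaks in its span, but they covered only 6.28 kb, or 2.76%. That was near the median of genes of like length, 2.89%, and more than 48.7% of the 1782. The longest stretch without a peak was 68.0 kb in Kmt2c and 5.58 kb in Kmt2d. The strongest peak of Kmt2c, chr5:25439751-25440779, had a fold of 4.19, and its widest was 1.91 kb, at chr5:25313530-25315434 with a fold of 3.04. The folds of single peaks overlapped but were somewhat higher at Kmt2d. With flank peaks they ran from 3.14 to 4.71 at Kmt2d (median 3.68) and from 2.85 to 4.19 at Kmt2c (median 3.40). Number per length and width differed more. There were 1.89 peaks per 10 kb of span in Kmt2d and 0.352 in Kmt2c, with median widths in the span of 2775 bp and 731.5 bp.

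Setd1a, on chr7:127777389-127800122, and Setd1b, on chr5:123142040-123168630, encode the catalytic subunits of the SETD1 complexes. In Setd1a 2 peaks covered 29.7% of the span, more than 95.6% of 7858 genes of like length (median 4.54%). They were 4.69 kb at chr7:127783665-127788355 with a fold of 3.79, and 2.06 kb at chr7:127795653-127797710 with a fold of 4.18. In Setd1b 5 peaks covered 47.0%, more than 99.5% of 7743 genes of like length (median 4.44%). Its peak at chr5:123156853-123162085 was both its widest, 5.23 kb, and its strongest, with a fold of 4.34. Both genes lie in surroundings with more 5hmC than most: peaks covered 13.0% of the 100 kb on each side of Setd1a and 12.1% of those of Setd1b, against a median of 5.45% for genes in the length range.

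Cxxc1, on chr18:74216212-74221493, encodes the subunit that binds unmethylated CpG and brings SETD1 complexes to promoters. It is the shortest of the 10 genes, 5.28 kb, and had the highest share under peaks, 74.5%, more than 99.6% of 5104 genes of like length, whose median was 0%. Nearly all came from the peak chr18:74217395-74221102, which was 3.71 kb wide with a fold of 4.84, the highest of the 73. A peak of 226 bp at chr18:74216244-74216469 lay at the other end of the gene, with a fold of 2.77. Without 1 kb at each end the share was 94.4%. The third peak lay 6.12 kb outside the gene, with a fold of 4.71, and touched no annotated gene. As for the SETD1 genes, the surroundings were rich in peaks, with 13.0% of the 100 kb on each side covered.

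Kdm1a, on chr4:136550533-136602787, encodes LSD1, the demethylase of the CoREST complex. Its 5 peaks in the span covered 5.39%, near the median of 4.22% for 6029 genes of like length and more than 57.2% of them. The strongest of those in the span, chr4:136598294-136598679, had a fold of 3.62 and a width of 386 bp. The strongest of all 7 and also the widest, chr4:136540868-136541870, was 1.00 kb with a fold of 3.66 and lay 8.66 kb outside the span, within the neighbour Luzp1. Kdm1b, on chr13:47043373-47085279, encodes LSD2, which oocytes need to clear H3K4 methylation before imprints are set. It was the most covered of the demethylase genes, with 7 peaks over 19.7% of its span, more than 91.8% of 6764 genes of like length (median 4.23%). Its widest and strongest peak was chr13:47062788-47065058, 2271 bp with a fold of 3.53.

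Kdm5b, on chr1:134560178-134632878, encodes the H3K4 trimethyl demethylase JARID1B. Its 5 peaks in the span covered 4.37%, against a median of 3.996% for 4946 genes of like length, more than 52.3% of them. They lay at the far ends of the gene: 1 peak at the start, chr1:134560223-134560449, then 55.6 kb without any, then 4 peaks in the last part of the span. The peak at the start was 227 bp wide with a fold of 3.89, the highest of this gene, and it also lay within the annotated span of Mgat4e, so it cannot be given to Kdm5b alone. The widest, chr1:134630233-134631375, was 1.14 kb with a fold of 3.30.

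**Figure D3:**
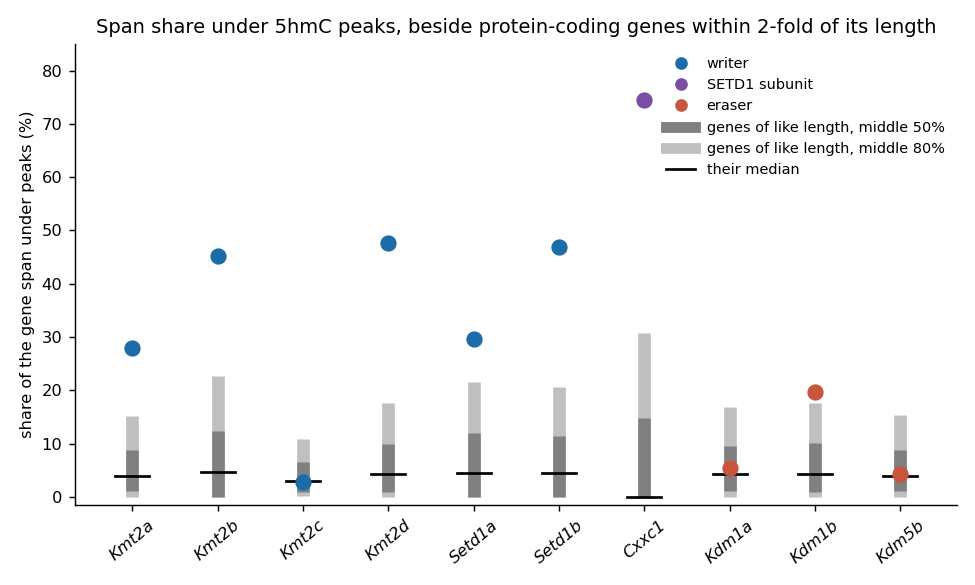
Share of each gene span under peaks (points, percent) beside protein-coding genes within 2-fold of its length (dark bar, middle 50%; light bar, middle 80%; line, median). Points for Kmt2a, Kmt2b, Kmt2d, Setd1a, Setd1b, Cxxc1 and Kdm1b lie above the light bar, and those for Kmt2c, Kdm1a and Kdm5b lie near the median.

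Set side by side, 6 of the 10 genes were above the 95th percentile of their like-length genes and 9 were above the median, with Kmt2c the exception. The 6 methyltransferase genes had a median share of 37.4% and the 3 demethylase genes 5.39%. The groups overlapped, since Kmt2c had the lowest share of all 10 and Kdm1b stood above Kmt2c. Shorter genes had higher shares: Spearman's rho between length and share was -0.758 over the 10 genes, which share 1 library, -0.511 over the 13415 protein-coding genes that, like these, had a peak in the span, and 0.0115 over all protein-coding genes in the same length range, with or without a peak. Shares in the span were above those in the surrounding 100 kb on each side in 7 of the 10 genes, against 42.3% of genes in the length range. In Kmt2a the contrast was 28.0% in the span, 5.69% in those surroundings and 0% in the nearest 10 kb; in Kdm5b it was 4.37% and 5.43%.

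Peaks at these genes were more frequent and wider than the background given beside each value, with folds close to it. The median over the 10 genes was 1.33 peaks per 10 kb of span, against 0.649 over genes in the length range. Only Kmt2c, at 0.352, was below that background. Peaks touching the 10 spans had a median width of 966 bp, against 659 bp for all peaks that touch a protein-coding span. Their median fold was 3.36 against 3.24. By gene, the median width in the span was below 659 bp only in Kdm1a, at 386 bp, and Kdm5b, at 607 bp. A peak wider than 5 kb touched 3 of the 10 genes (Kmt2b, Kmt2d and Setd1b), against 1.12% of protein-coding genes. The folds of the 73 peaks ran from 2.73 to 4.84 with a median of 3.35, the same as the median of 3.35 over all peaks. None came near the strongest peaks of the library, where the highest fold was 22.7. Of the 14 flank peaks, 13 touched another annotated gene, the exception being the peak beside Cxxc1.

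**Figure D4:**
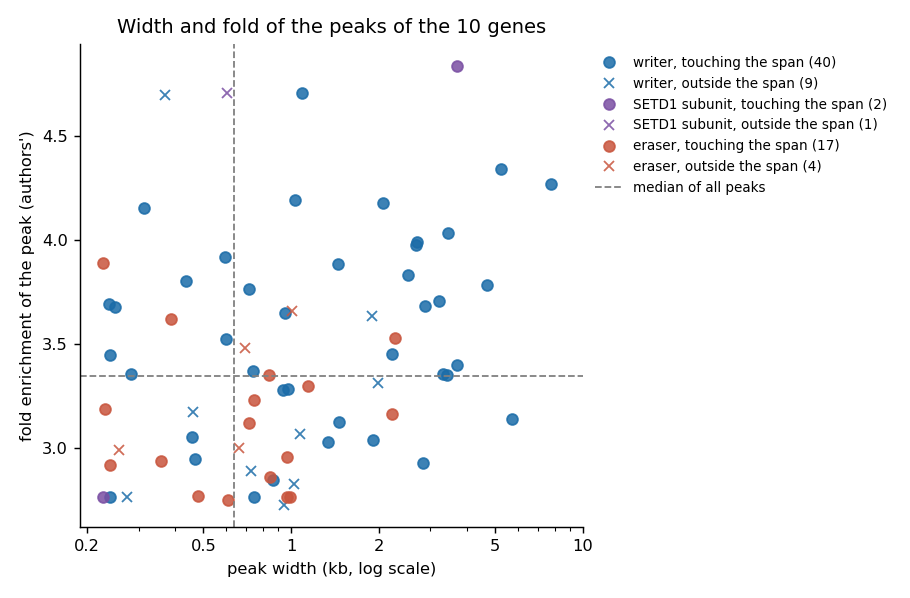
Width (horizontal axis, kb, log scale) and the authors' fold enrichment (vertical axis) of the 73 peaks, by role of the gene; circles touch the gene span and crosses lie in a flank, and dashed lines are the medians of all peaks. The 3 peaks wider than 5 kb are in methyltransferase genes, and no demethylase peak is wider than 2271 bp.

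Most of these peaks were weak calls, as were most peaks touching protein-coding spans. The median −log10 q was 1.87 for the 59 peaks touching the 10 spans and 1.67 for all peaks touching protein-coding spans. A −log10 q of at least 3 was reached by 9 of the 73, or 12.3%, against 24.2% of all peaks. Among peaks touching a span it was reached by 7 of the 59, or 11.9%, against 14.0% for protein-coding spans in general. At that threshold 7 of the 10 genes kept a peak in the span or within 10 kb, namely the 6 methyltransferase genes and Cxxc1, while no demethylase gene did. The background was 37.2% of protein-coding genes. The 9 peaks were the strongest peak of each methyltransferase gene named above, the 2 peaks of Cxxc1 with folds of 4.84 and 4.71, and a peak 9.99 kb from Kmt2d, within Prkag1, with a fold of 4.70. Shares then changed unequally: Cxxc1 was at 70.2% and Kmt2b at 38.6%, Setd1b at 19.7% and Setd1a at 9.05%, but Kmt2d at 2.57%, Kmt2c at 0.453% and Kmt2a at 0.401%. At a −log10 q of at least 5 none of the 10 genes had a peak, against 16.3% of protein-coding genes. Most of the cover of Kmt2a, Kmt2c, Kmt2d, Setd1a and Setd1b thus came from peaks below a −log10 q of 3, as did all cover of the demethylase genes. Most of the cover of Cxxc1 and Kmt2b came from 1 peak each above it. Some values lay close to this cutoff on either side. The only peak of Kmt2a above it was at 3.07 and the only one of Setd1a at 3.13, and the widest peak of Kmt2b was at 3.41. Just below it, peaks of Setd1b were at 2.93 and 2.89. The 3.44 kb peak of Kmt2d at chr15:98850317-98853756 was at 2.90. The highest value of a demethylase gene was 2.54, at Kdm5b.

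A peak within 1 kb of either end of the span was found in 4 of the 10 genes (Kmt2a, Kmt2b, Cxxc1 and Kdm5b), against 26.6% of protein-coding genes. In Kmt2a it lay at the end of transcription, 591 bp inside the span, and in Kdm5b at the start. Strand was not listed for Kmt2b and Cxxc1. In Kmt2b only the lower-coordinate end had such a peak, and whether transcription begins or ends there was not known. In Cxxc1 a peak lay within 1 kb of each end, so the end where transcription begins had one on either strand.

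The genes of partners of these enzymes had lower shares. In a list of 32 genes of complex subunits and related enzymes, 29 had a peak in the span or within 10 kb, against 78.7% of protein-coding genes. The median share was 3.64%, with 14 genes above the median of their like-length genes and 3 above the 95th percentile. A peak within 1 kb of either end was found in 10 of the 32, against 26.6% of protein-coding genes. None of the 25 with a listed start had a peak within 1 kb of it, against 8.16% of protein-coding genes. These counts say little about the partners as a set. The 4 core subunit genes shared by all KMT2 and SETD1 complexes were near or below their background, with 2.59% for Wdr5, 1.35% for Rbbp5, 5.53% for Ash2l and 6.003% for Dpy30. The partners of KMT2C and KMT2D ranged from 0% for the demethylase gene Kdm6a and for Pagr1a to 0.664% for Ncoa6 and 2.37% for Paxip1. Their like-length medians were 3.66% for Kdm6a, 0% for Pagr1a, 3.95% for Ncoa6 and 4.23% for Paxip1. Kmt2c was at 2.76% and Kmt2d at 47.7%.

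The highest shares in that list were 38.8% for Rcor2, a CoREST scaffold gene whose product partners LSD1, 35.0% for Smyd2, of a SET-domain lysine methyltransferase, 32.6% for Men1, whose product menin tethers KMT2A and KMT2B, 22.7% for the H3K4 monomethyltransferase gene Setd7, and 11.1% for Wdr82, of a SETD1 subunit. The partners above the 95th percentile of their like-length genes were Rcor2, Smyd2 and Smyd3, the last with 10.5% of its 566 kb under peaks (like-length median 1.57%). No peak was found in or within 10 kb of Kdm6a, Kdm5c and Bod1. Kdm6a and Kdm5c lie on the X chromosome, where the median share over 963 protein-coding genes was 0%. The other autosomal or Y-linked KDM5 genes had shares of 0% for Kdm5a and 3.57% for Kdm5d, beside 4.37% for Kdm5b. Kdm5d lies on the Y chromosome, where 8 of 256 protein-coding genes had a peak in the span and the median share was 0%.

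**Figure D5:**
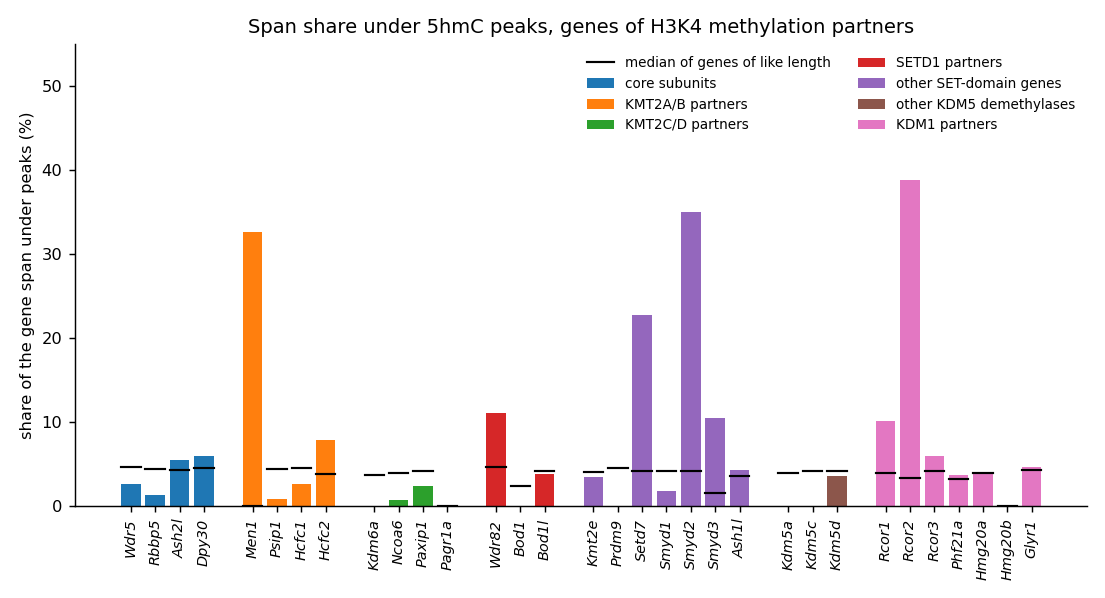
Share of the gene span under peaks (bars, percent) for 32 genes of H3K4 methylation partners, coloured by group, with the median of protein-coding genes of like length (black lines). Rcor2, Smyd2, Men1 and Setd7 stand above 20, and most other bars are near their black line or below it.

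As a check on the label, marker genes were read in the same way, although 5hmC at a gene does not show its expression. A peak in the span or within 10 kb was found at 10 of 11 germ cell genes, 11 of 12 genes of the gonadal soma and 5 of 7 genes of blood and endothelium. With 78.7% of all protein-coding genes having such a peak, these counts say little about cell type. A peak within 1 kb of a listed start was found at 4 of 9, 0 of 5 and 1 of 4 of them, against 8.16% of all protein-coding genes with a listed start.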

How the data were processed

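5hmC was profiled by 5hmC-Seal in 1 captured library of E17.5 prospermatogonia, and the input library was not analysed here. Per the submitters' processing notes, reads were handled on build mm10 with bedtools 2.27.1, Bowtie2 2.5.0, deepTools 3.5.1, MACS2 2.1.0, SAMtools 1.16.1 and Trim Galore. No source used here gives their roles or settings, or says whether the input served as control. The deposited broad peak list gives each peak a fold enrichment ratio, a −log10 p and a −log10 q, and an integer score that was not used. The lowest −log10 q in the deposited list corresponds to a q of 0.0976. The depth is unknown, since no counts were used, and there is no replicate, so no test, interval or error was possible.

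Gene spans came from RefSeq, GRCm38.p6: 21775 protein-coding genes on chromosomes 1 to 19, X and Y, without genes placed in the opening 3 Mb of a chromosome other than Y. Starts came from the RefSeq table of start sequences, taking the farthest upstream where several were listed; 80.3% of protein-coding genes had one. Peaks counted from 1 bp of overlap. Interval code, in Python 3.11.15 with pandas 2.3.3, was tested on simulated data. The 10 genes, the partner and marker lists and the settings were chosen with earlier results of these data known; the 5 kb width, the classes of 20 CG, the 100 kb surroundings and the start profile were chosen after the values were seen. Text names all 10 genes with their strongest and widest peaks, and from the partners those without a peak and the 5 most covered; other partners were named after their values were seen. Alternatives were peak thresholds, merged peaks, other flanks and windows, midpoints, and gene bodies.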

Additional observations from a re-analysis of the deposited data

How the results depend on the processing

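The peak threshold was the setting that changed these values. With −log10 q of at least 3, 9 peaks were left with a median fold of 4.34, the median share of the 10 spans under peaks was 1.51% (0% over genes in the same length range), and 1 gene kept a peak within 1 kb of an end and 0 within 1 kb of a listed start. With −log10 q of at least 5 the counts and the median share were 0, and a median fold could not be given. Merging peaks within 1 kb, a window of 250 bp, flanks of 0, 5 or 20 kb and peak midpoints kept each count within 1.5 times, with 59 to 95 peaks. Gene bodies in place of spans moved the median share to 30.5% and only the share of Cxxc1 by over 1.1 times. How much depth limits the weak calls was not tested. No paired analysis was possible because each group has 1 library.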
